A study of Mus musculus with 16 samples.

Results

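Matrix metalloproteinases (Mmp), secreted proteinases with thrombospondin repeats (Adamts), tissue inhibitors of metalloproteinases (Timp) and lysyl oxidases (Lox and Lox-like, Loxl) were taken from the deposited table by the form of their symbols. The 4 families had 51 members among 30286 distinct symbols. Of these, 38 reached 1 TPM (a transcript abundance unit corrected for depth and transcript length) in at least 1 group and are described here. They are 13 of 23 Mmp, 18 of 19 Adamts, 3 of 4 Timp and 4 of 5 Lox genes. The members with the lowest maximum among them were Mmp25 at 1.09 TPM and Adamts16 at 1.29 TPM. The highest of the 13 others were Loxl4 at 0.33 TPM and Timp4 at 0.17 TPM.

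Messenger RNA was sequenced from facial prominences of C57BL/6 mouse embryos at embryonic day 12, wild-type (WT) or homozygous for a knockout (KO) of Esrp1, a splicing regulator of epithelial cells. Surgery parted the surface ectoderm from the underlying mesenchyme, so that each genotype gave an ectoderm group and a mesenchyme group. All 4 groups had 4 libraries, each from a pool of 6 to 7 embryos, and the KO was not limited to either layer by the labels. The table holds 1 value per group, so no difference has a replicate check, no value has an error and no test was possible. The words higher and lower describe the deposited values. The title of the study places it on cleft lip and palate and on signals between the layers.

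These families set how much matrix a tissue keeps and how stiff it is. Metalloproteinases cut collagens, proteoglycans and glycoproteins, Timp proteins block their active site, and lysyl oxidases crosslink collagen and elastin fibres. Remodelling of a versican-rich matrix is part of palate growth, and mice lacking Loxl3, or with joint loss of Adamts9 and Adamts20 function, have cleft palate.

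The 4 columns summed to between 917993 and 977371 TPM, and the depth behind them is unknown. Esrp1 itself had 170 TPM in ectoderm of WT and 62.9 in that of KO embryos. The layers carried their labels' markers: 20 epithelial markers summed to 3920 TPM in WT and 3335 in KO ectoderm against 61.1 and 53.7 in the mesenchyme groups. A list of 25 mesenchyme markers summed to 4329 TPM in WT and 3128 in KO mesenchyme, against 373 in WT and 791 in KO ectoderm. No gene of either list was at 0 in any group. Libraries with a double index barcode numbered 1 of 4 for WT and 2 of 4 for KO ectoderm, and 0 and 2 of 4 for the mesenchyme of the same genotypes, and the pooled values cannot be split by it.

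Most of the summed Mmp TPM came from Mmp2, Mmp14 and Mmp11. Below, levels are in TPM and in the order WT ectoderm, KO ectoderm, WT mesenchyme and KO mesenchyme. Mmp2, gelatinase A, which cuts denatured collagen and collagen IV, was at 28.9, 50.1, 181 and 121. Mmp14, a membrane-bound enzyme that activates Mmp2 at the cell surface with Timp2 as the bridge, was at 80.2, 83.8, 109 and 63.0. Mmp11 (stromelysin 3), which is activated inside the cell by furin, was at 70.2, 67.8, 72.3 and 37.8. Mmp2, Mmp14 and Mmp11 together held 89.1%, 87.7%, 87.7% and 85.3% of the summed Mmp TPM. Their layers were unlike: Mmp2 was 6.27 times as high in WT mesenchyme as in WT ectoderm, while Mmp11 was nearly level. Mmp9, gelatinase B, was far below Mmp2 at 0.31, 1.08, 3.75 and 1.39.

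The other membrane-bound enzymes had lower levels. Mmp15 was at 11.8, 12.9, 13.1 and 5.68, with KO mesenchyme lowest. Mmp16 was at 2.03, 3.31, 9.31 and 13.9, with KO mesenchyme highest. Mmp24 was at 1.0, 1.10, 2.08 and 2.01, and the lipid-anchored Mmp17 and Mmp25 at 0.89, 1.42, 2.59 and 1.47 and at 0.08, 0.20, 1.09 and 0.45. For Mmp17 and Mmp25 the WT mesenchyme was the highest group. Mmp23, an enzyme anchored by its own N-terminal part, was at 3.17, 5.17, 11.7 and 6.84, and Mmp28 (epilysin) at 0.17, 0.75, 4.09 and 2.14. Both had their highest value in WT mesenchyme. Mmp19 (0.89, 0.84, 1.09 and 1.46) and Mmp12, the elastase of macrophages (1.51, 1.45, 1.70 and 2.46), stayed low in all 4 groups.

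Interstitial collagenases were nearly missing from the table's values. Mmp1a and Mmp1b were listed at 0 in all groups, and Mmp8 and Mmp13 did not exceed 0.11 TPM. All 4 belong to a cluster of 10 Mmp genes on chromosome 9 (7272514 to 7699585, GRCm38), of which only Mmp12 reached 1 TPM. The other 9, which include Mmp3, Mmp7, Mmp10, Mmp20 and Mmp27, were at 0.11 TPM or less in each group.

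The Adamts family had its own ectodermal members. Adamts18 (chromosome 8, 113697126 to 113848738, minus strand) was at 33.2, 31.1, 1.57 and 1.07 TPM. Adamts17 (chromosome 7, 66839735 to 67153171, plus strand), an enzyme of fibrillin microfibrils, was at 31.9, 32.8, 12.5 and 7.35. Together they held 47.7% of the summed Adamts TPM of WT ectoderm and 5.10% of that of WT mesenchyme. Adamts19 was at 10.8, 9.67, 9.06 and 8.65, close to level between layers. Adamts14, a procollagen N-proteinase, was at 2.54, 3.50, 2.03 and 1.36.

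The bases just upstream of the start sites are shown for Adamts17 and Adamts18, the 2 members at least 2-fold higher in WT ectoderm than in WT mesenchyme. Those of Adamts9 are shown because it had the largest log2 ratio of KO over WT (TPM plus 1) in ectoderm among members with such a window. Those of Mmp15 are shown for the lowest such ratio in mesenchyme. All stretches come from RefSeq on GRCm38.p6, are read 5′ to 3′ on the gene's strand and stop before any annotated exon. Capitals mark matches on either strand to 5 motifs. The E-box core was searched as CACCTG. The letters of the AP-2 motif were GCCNNNGGC. The GC box was taken as GGGCGG. For AP-1 the letters were TGANTCA. The TATA box was read as TATAAA.
Adamts17 (chr7:66839485-66839734, plus strand): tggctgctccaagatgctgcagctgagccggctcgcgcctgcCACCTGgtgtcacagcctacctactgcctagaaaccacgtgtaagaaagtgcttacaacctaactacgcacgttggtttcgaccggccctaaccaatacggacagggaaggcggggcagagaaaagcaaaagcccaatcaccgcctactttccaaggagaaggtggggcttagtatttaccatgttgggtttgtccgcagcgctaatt
Adamts18 (chr8:113848840-113849089, minus strand): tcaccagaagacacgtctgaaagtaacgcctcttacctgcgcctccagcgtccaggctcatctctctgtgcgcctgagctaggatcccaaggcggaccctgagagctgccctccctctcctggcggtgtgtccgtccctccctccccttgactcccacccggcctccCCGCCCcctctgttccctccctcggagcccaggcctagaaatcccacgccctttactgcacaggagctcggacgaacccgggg
Adamts9 (chr6:92943535-92943784, minus strand): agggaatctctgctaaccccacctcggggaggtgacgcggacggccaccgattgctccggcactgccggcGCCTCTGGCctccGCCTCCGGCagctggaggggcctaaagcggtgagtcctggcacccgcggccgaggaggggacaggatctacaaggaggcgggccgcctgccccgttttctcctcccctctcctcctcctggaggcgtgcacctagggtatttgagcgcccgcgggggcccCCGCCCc
Mmp15 (chr8:95352046-95352267, plus strand): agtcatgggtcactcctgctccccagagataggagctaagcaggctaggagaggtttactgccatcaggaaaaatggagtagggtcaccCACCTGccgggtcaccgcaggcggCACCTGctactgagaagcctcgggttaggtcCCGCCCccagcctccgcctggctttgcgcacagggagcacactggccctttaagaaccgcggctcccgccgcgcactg

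The Adamts17 stretch holds 1 E-box core and no other match, and that of Adamts18 1 GC box. Adamts9 has 2 AP-2 motifs and 1 GC box, and Mmp15 has 2 E-box cores and 1 GC box. For the counts, RefSeq windows of 250 bases were used, which were found for 20 of the 38 genes (22 windows), while the Mmp15 stretch shown is shortened to 222 bases. The GC box was in 72.7% of these windows, against 32.7% of all 32851 windows and 56.1% of the 14104 windows of genes at 1 TPM or more. The AP-2 motif was in 27.3%, against 13.7% and 20.2%, and the E-box core in 22.7%, against 17.2% and 16.2%. AP-1 and TATA matches were each in 4.55% of the members' windows, against 6.75% and 12.4% of all windows and 4.39% and 6.61% of the second set. A match is a run of letters and not a shown binding site.

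Enzymes that cut proteoglycans such as versican and aggrecan were all higher in mesenchyme. Adamts1 was at 4.75, 6.89, 30.3 and 25.6 TPM, and Adamts9 at 3.95, 13.4, 19.0 and 16.4. Adamts20 was at 1.11, 2.73, 14.5 and 13.8, and Adamts15 at 2.29, 4.17, 15.0 and 7.91. In KO mesenchyme Adamts20 kept 95.1% of its WT level and Adamts15 52.6%. Adamts4 was at 1.22, 2.05, 8.28 and 5.40, Adamts5 at 0.68, 1.42, 2.45 and 2.31, and Adamts8 at 0.28, 0.55, 1.81 and 0.91. Adamts1 and Adamts5 lie 53.1 kb apart on chromosome 16, and Adamts8 and Adamts15 lie 20.1 kb apart on chromosome 9. Each pair had its higher levels in mesenchyme.

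Procollagen N-proteinases trim fibrillar procollagens before they assemble. Adamts2 was at 1.42, 2.34, 7.97 and 5.89 TPM, and Adamts3, which also processes the lymphatic growth factor Vegfc, at 0.76, 2.04, 5.57 and 4.30. Both were at their lowest in WT ectoderm. Among the rest, Adamts10, an enzyme of fibrillin microfibrils, was the highest Adamts gene of mesenchyme (26.8, 40.6, 92.6 and 68.6). Adamts7, which can cut cartilage oligomeric matrix protein, was at 9.38, 13.6, 41.0 and 20.7, and its relative Adamts12 at 0.57, 0.91, 2.96 and 3.86. Adamts6 was at 4.38, 6.00, 8.01 and 8.98. Adamts16 was at 0.34, 1.29, 1.10 and 0.79 and shares with Adamts14 and Adamts17 its highest value in KO ectoderm.

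Inhibitors and crosslinking enzymes were also mainly mesenchymal. Timp2 was at 38.6, 50.3, 99.5 and 47.8 TPM, Timp3, an inhibitor that binds to matrix and also blocks several Adamts enzymes, at 27.4, 22.2, 43.8 and 46.6, and Timp1 at 4.16, 7.66, 18.6 and 15.1. Loxl2 led the lysyl oxidases (12.2, 18.3, 60.2 and 33.7), ahead of Lox (1.10, 5.65, 27.9 and 21.3), Loxl3 (2.41, 4.38, 19.4 and 12.9) and Loxl1, an enzyme of elastic fibres (1.11, 2.38, 9.35 and 4.47). For all 4 lysyl oxidases the order was WT mesenchyme, KO mesenchyme, KO ectoderm and WT ectoderm. Each was thus closer between the layers in KO than in WT tissue. Summed over the family, Lox TPM were 17.1, 30.9, 117 and 72.6, Timp 70.2, 80.2, 162 and 109.6, Mmp 201, 230.05, 414 and 260.04, and Adamts 136, 175, 276 and 204. The ratio of summed Mmp and Adamts to summed Timp was 4.81, 5.05, 4.26 and 4.23.

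**Figure D1:**
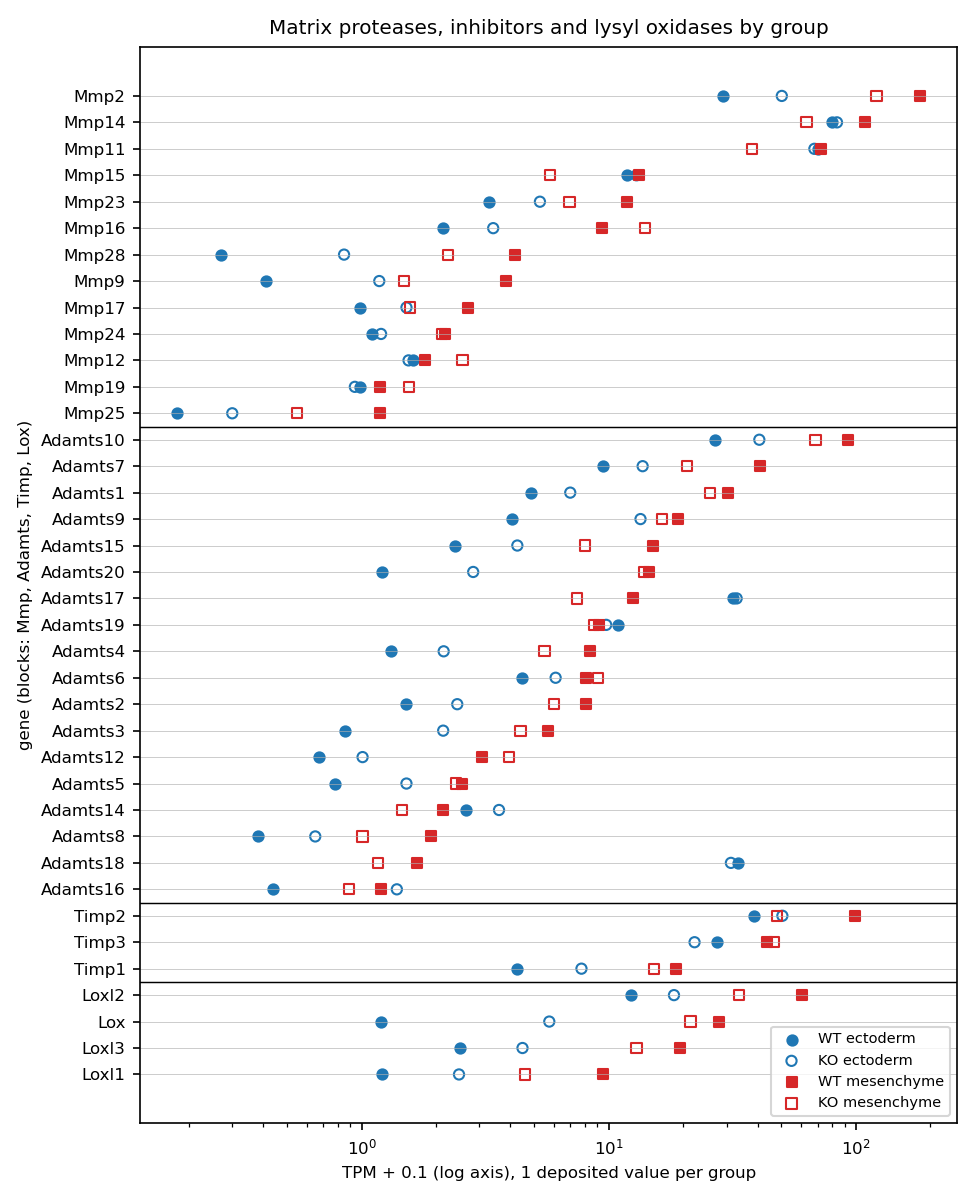
TPM plus 0.1 (log axis) of the 38 described genes, 1 point per group: circles for ectoderm, squares for mesenchyme, filled for WT, open for KO. Most genes run from WT ectoderm at the left to WT mesenchyme at the right, and Adamts17 and Adamts18 run the other way.

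The first comparison set WT ectoderm against WT mesenchyme. Genes averaging 1 TPM or more in the groups set against each other count as measured. A difference is the log2 ratio after 1 is added to each TPM value, so it is too small for genes of low level. Of 35 measured members 23 (65.7%) were at least 2-fold lower in ectoderm, against 12.1% of all 14242 genes measured, and 2 (5.71%) at least 2-fold higher, against 6.89%. Their median log2 ratio, ectoderm over mesenchyme, was -1.75, and that of all genes -0.15. The largest differences were those of Lox (-3.78), Adamts20 (-2.88), Mmp2 (-2.61) and Loxl3 (-2.58). The 2 genes higher in ectoderm were Adamts18 (3.74) and Adamts17 (1.28). All 7 proteoglycanases and all 4 lysyl oxidases were 2-fold lower in ectoderm. Of the membrane-bound enzymes, Mmp16 (-1.77) and Mmp23 (-1.61) were 2-fold lower, and Mmp14, Mmp15, Mmp17 and Mmp24 were within 2-fold. Mmp25 was not measured in this comparison. Mmp9 and others with little RNA in ectoderm passed the filter through mesenchyme alone, so these counts describe the values and support nothing further. In bulk tissue, fewer cells of a type and less RNA per cell cannot be told apart.

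Fewer members were 2-fold apart between the layers in KO than in WT tissue, but not all members drew closer. Between KO ectoderm and KO mesenchyme 10 of 36 members (27.8%) were 2-fold lower in ectoderm, against 6.88% of 14411 genes, and 3 (8.33%) higher, against 9.06%. The third of these was Mmp15, at a log2 ratio of 1.05, beside Adamts18 (3.96) and Adamts17 (2.02). Mmp15 and Timp3 were past 2-fold only between the KO layers. Of the 9 alternatives run for this comparison, Mmp15 stayed past 2-fold in 5, with a lowest ratio of 0.65. Timp3 stayed past it in 8 and was at -0.93 with a pseudocount of 5. Between the WT layers Mmp15 was at -0.15, and Timp3 went from -0.66 in WT to -1.04 in KO. The members' median was -0.54, and that of all genes 0.00.

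In KO ectoderm 3 of 4 lysyl oxidases, some proteoglycanases and Mmp2 were at least 1.5-fold higher than in WT, while Loxl2, the most abundant lysyl oxidase, was not (0.54). Lox had the largest log2 ratio, KO over WT, at 1.66, and Adamts9 was next at 1.54. Adamts20 (0.82), Adamts3 (0.79), Mmp2 (0.77), Timp1 (0.75), Loxl1 (0.68), Loxl3 (0.66) and Adamts15 (0.65) were also past 1.5-fold. These 9 were 29.0% of the 31 members measured, against 4.93% of 13935 genes. No member was 1.5-fold lower, as for 0.452% of all genes, and the member with the lowest ratio was Timp3 at -0.30. The members' median was 0.46 and that of all genes 0.05. The abundant Mmp14 (0.06) and Mmp11 (-0.05), and the ectodermal Adamts17 (0.04), Adamts18 (-0.09) and Adamts19 (-0.14), were within 1.5-fold. For Mmp14, Adamts17 and Adamts18 the sign turned under at least 1 other processing.

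Markers of several other tissues were higher in KO ectoderm too, but not those of all. Of 24 measured mesenchyme markers 21 were 1.5-fold higher (Prrx1, 9.22 to 40.4 TPM), against 4.93% of all genes. So were 12 of 13 endothelial markers (sum 25.5 TPM in WT ectoderm, 67.0 in KO ectoderm and 424 in WT mesenchyme), 10 of 10 skeletal muscle markers (21.9, 82.9 and 433) and 4 of 11 macrophage markers (40.8, 54.8 and 114). Cartilage and bone markers were higher in 4 of 10 cases (127, 195 and 438 TPM) and neuron markers in 6 of 10 (109.9, 144 and 279 TPM). Red blood cell markers were higher in 1 of 11 (4751, 5009 and 20227 TPM) and Schwann cell and melanoblast markers in 1 of 8 (88.9, 89.0 and 58.1 TPM). No member of these lists was at 0 in WT ectoderm.

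The gain of each gene was therefore set beside that of the mesenchyme markers. This gain is the KO to WT difference in ectoderm, expressed as a percentage of the excess of WT mesenchyme over WT ectoderm. It was computed for genes with a 5-fold or larger mesenchyme excess, and the WT ectoderm value enters both differences. The 23 mesenchyme markers had a median of 10.9% (quartiles 9.34 to 12.7, range 5.94 to 20). The 15 members had a median of 14.2% (quartiles 12.0 to 16.2), from 8.38% for Adamts1 to 26.6% for Adamts3. Lox (17.0%), Loxl1 (15.4%), Loxl3 (11.6%), Mmp2 (13.9%), Adamts15 (14.7%) and Adamts20 (12.1%) lay within the range of the mesenchyme markers, and Mmp9 (22.4%) above it. Other lists reached further at the same 5-fold limit: 6 cartilage and bone markers had a median of 19.8% and a highest value of 32.0%, and the highest skeletal muscle marker was at 22.7% and the highest endothelial marker at 22.3%. With 10.9% of the mesenchyme excess subtracted, 2 of 29 members, Adamts9 and Lox, were still 1.5-fold higher, against 2.03% of all genes. Adamts9 was then at a log2 ratio of 1.36 and Lox at 0.83, while Mmp2 was at 0.20, Timp1 at 0.46 and Adamts1 turned to -0.17.

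The WT mesenchyme level of Adamts9 was 4.81 times its WT ectoderm level, just under the 5-fold limit, and its gain was 62.5% of the mesenchyme excess. Members down to 2-fold higher in mesenchyme, a wider set chosen after values were seen, numbered 27, with a median of 15.4% (quartiles 13.0 to 22.9). The 2379 genes of the table that met the same 2-fold limit had a median of 14.2% (quartiles 9.48 to 21.6). Between 2-fold and 5-fold, 12 members had a median of 22.2% and 1418 genes one of 16.3% (quartiles 9.83 to 25.8). Adamts5 gained 41.8%, Mmp17 31.2%, Timp1 24.3% and Timp2 19.3%. Adamts16 gained 125%, since KO ectoderm (1.29 TPM) was above WT mesenchyme (1.10 TPM), and it did not reach the mean of 1 TPM in the ectoderm comparison. Some markers between 2-fold and 5-fold also had large gains, among them the neuron markers Elavl3 (90.3%) and Elavl4 (62.5%), the cartilage marker Col9a3 (46.9%) and the macrophage markers Adgre1 (36.2%) and C1qc (35.1%). These were picked after their values were seen. The same lists also held low gains, at 5.17% for Snap25, 8.59% for Runx2 and 7.69% for Ptprc. Between 2-fold and 5-fold, 4 neuron markers had a median of 44.4%, 9 macrophage markers 25.7% and 5 cartilage and bone markers 15.8%. The median of 12 red blood cell markers was 0.70%. The part of such cells in the gains of Adamts9 and the other members was not tested.

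**Figure D2:**
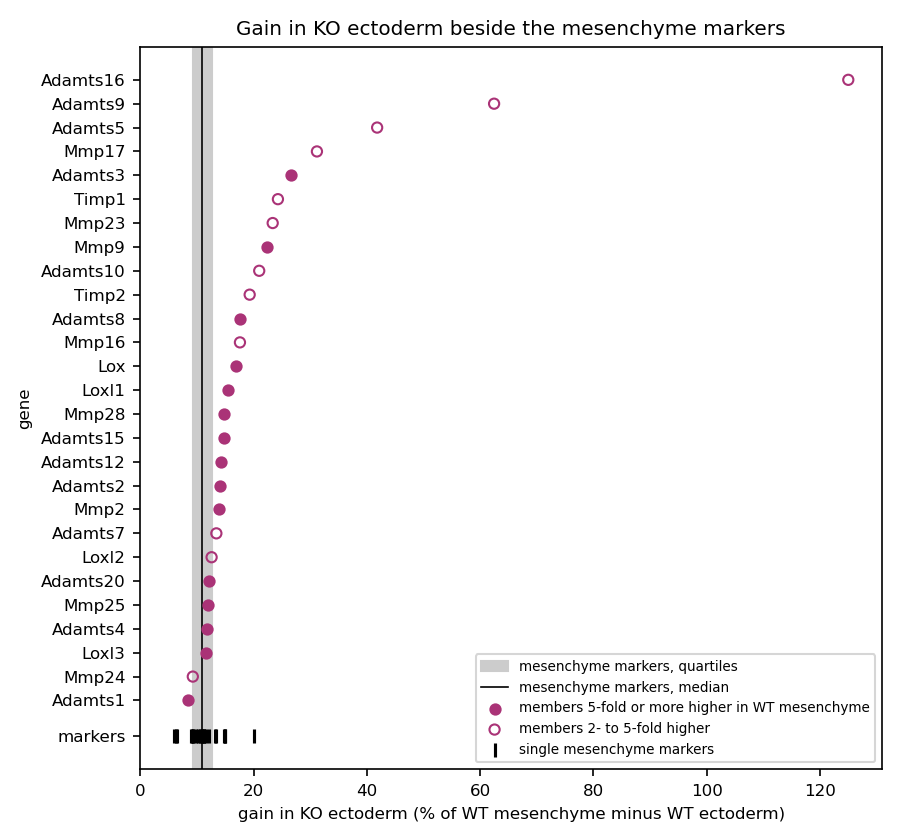
Gain in KO ectoderm (horizontal axis, % of the excess of WT mesenchyme over WT ectoderm), for the 27 members at least 2-fold higher in WT mesenchyme (filled: 5-fold or more), with the 23 mesenchyme markers at 5-fold or more as ticks, their median as a line and their quartiles as a grey band. Most members lie to the right of the band: their lower quartile is 13.0%, and the upper edge of the band is 12.7%. Adamts5, Adamts9 and Adamts16, at 41.8%, 62.5% and 125%, lie farthest to the right. The band rests on the markers at 5-fold or more alone.

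In KO mesenchyme many members were lower than in WT. Mmp15 had the lowest log2 ratio, KO over WT, at -1.08, and Timp2 was next at -1.04. Mmp9 (-0.99), Adamts7 (-0.95), Loxl1 (-0.92), Mmp11 (-0.92), Adamts15 (-0.85), Loxl2 (-0.82), Mmp14 (-0.78), Mmp23 (-0.70), Mmp28 (-0.70) and Adamts17 (-0.69) were also past 1.5-fold. These 12 were 33.3% of 36 measured members, against 13.4% of 14233 genes. Mmp2, at -0.58, was just inside 1.5-fold. No member was 1.5-fold higher, against 2.35% of all genes, and the highest ratio was that of Mmp16 (0.53). The members' median was -0.40 and that of all genes -0.12.

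By family, 6 of 12 measured Mmp genes were lower, 3 of 17 Adamts genes, 2 of 4 lysyl oxidases and 1 of 3 inhibitors, against 13.4% of all genes. The share of the Adamts genes was near that of all genes. Procollagen N-proteinases were all within 1.5-fold (Adamts2 at -0.38, Adamts14 at -0.36 and Adamts3 at -0.31). Among proteoglycanases Adamts15 was lower, while Adamts20 (-0.07), Adamts5 (-0.06), Adamts9 (-0.20) and Adamts1 (-0.23) were within 1.5-fold. The signs of Adamts1, Adamts5, Adamts14 and Adamts20 turned under at least 1 other processing. Mmp14 and Timp2, partners in the activation of Mmp2, were at 57.7% and 48.0% of their WT levels, and Mmp2 at 66.8%. Timp3 was nearly level at 0.09.

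Most of these differences were smaller after a correction for the GC content of transcripts. Over all genes the KO to WT ratio in mesenchyme was lower at higher GC, and the fitted trend was 0.10 at 44% GC, -0.15 at 50% and -0.56 at 60%. The described members had a median transcript GC of 53.4%, against 50.9% for 14211 genes with a value, and a median length of 3804.5 bases against 2067. With the GC trend subtracted, 1 of 36 members was 1.5-fold lower, Timp2 (-0.68), against 2.36% of all genes, and 1 higher, Mmp16 (0.61), against 4.58%. Mmp9 (-0.53), Mmp15 (-0.53), Adamts15 (-0.53), Loxl2 (-0.51) and Lox (-0.50) were the next lowest, and Mmp28 (-0.16) and Mmp23 (-0.18) were near 0. The members' median was then -0.14. Whether the trend with GC comes from the libraries or the tissue was not tested. In ectoderm the same correction left 8 members 1.5-fold higher, against 4.12% of all genes, without Loxl1 (0.48), and Lox (1.67) and Adamts9 (1.53) first.

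**Figure D3:**
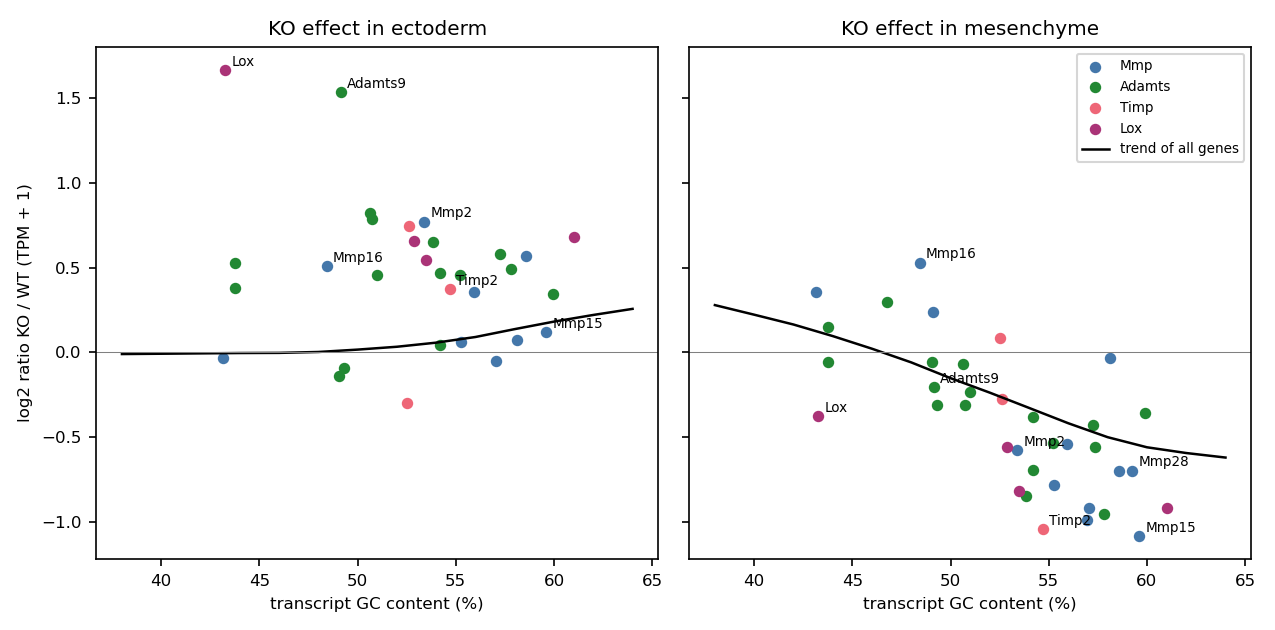
Log2 ratio of KO over WT (TPM plus 1) against transcript GC content, for measured members in ectoderm (left) and mesenchyme (right), coloured by family, with the lowess trend of all genes as a line. In mesenchyme the trend drops from 0.10 at 44% GC to -0.56 at 60%, and Timp2 lies farthest below it.

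In KO mesenchyme, without the GC correction, 13.4% of all genes were at least 1.5-fold lower. Among markers this held for 13 of 25 mesenchyme (Col1a1, 132 to 49.1 TPM), 6 of 15 endothelial and 7 of 13 cartilage and bone markers. It also held for 4 of 13 skeletal muscle and 1 of 14 macrophage markers. Neuron markers were 1.5-fold higher in 7 of 11 cases, against 2.35% of all genes, summing to 279 TPM in WT and 431 in KO mesenchyme. Summed macrophage markers were 114 and 104 TPM and summed cartilage and bone markers 438 and 283. The part of these cells in the values of the proteinases was not tested.

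The KO effects of the layers were then set against each other, as the ectoderm log2 ratio minus the mesenchyme log2 ratio. This difference was at least 1 on the log2 scale, or 2-fold, for 16 of 35 measured members (45.7%), against 7.34% of 14328 genes. None was at or below -1, against 0.593%. Lox had the largest at 2.04, then Adamts9 (1.74), Mmp9 (1.66), Loxl1 (1.60), Adamts15 (1.5), Adamts7 (1.45), Timp2 (1.42), Loxl2 (1.36) and Mmp2 (1.35). Mmp9 and Mmp28 (1.28) were under a mean of 1 TPM in ectoderm and passed the filter through mesenchyme alone, so their place in this order rests on low ectoderm values. The members' median was 0.90 and that of all genes 0.19. After the GC correction 5 members were past 2-fold, against 2.22% of all genes.

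**Figure D4:**
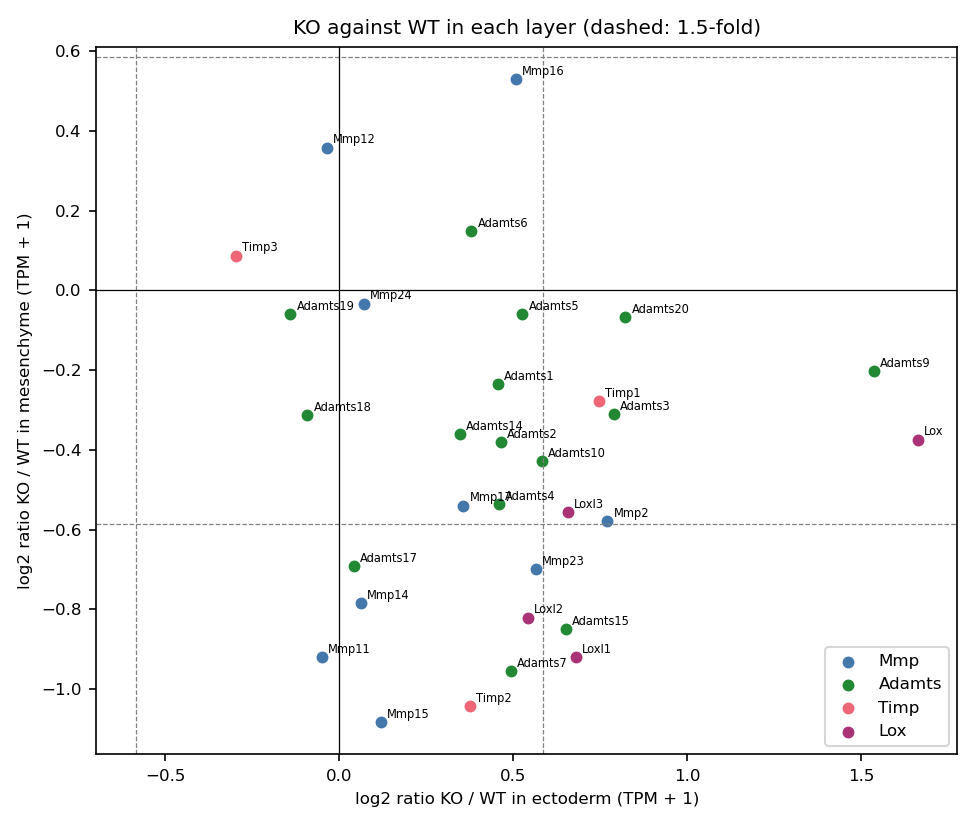
Log2 ratio of KO over WT (TPM plus 1) in ectoderm (horizontal) and mesenchyme (vertical) for the 31 members measured in both comparisons, coloured by family, with dashed lines at 1.5-fold. Loxl1 and Adamts15 lie past 1.5-fold in opposite directions, and Lox (1.66) and Adamts9 (1.54) lie farthest to the right.

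Other genes of matrix turnover were taken from 4 lists, whose counts stand beside the shares of all genes given above (4.93% at least 1.5-fold higher in KO ectoderm, 13.4% at least 1.5-fold lower in KO mesenchyme). Of 19 further proteinases and their activators, 3 of 14 measured in ectoderm were 1.5-fold higher and none lower, among them Plat, a plasminogen activator (9.70 to 16.6 TPM), and Adam19 (2.83 to 5.19 TPM). In mesenchyme 4 of 16 were lower and none higher: Furin, the convertase that activates Mmp11 (26.9 to 12.9 TPM), Pcsk6 (9.76 to 5.77), Bmp1, the procollagen C-proteinase (131 to 83.3), and Adam19 (30.04 to 19.7). Of 18 further inhibitors and regulators, 4 of 14 were higher in KO ectoderm, including Serpinf1 (10.9 to 31.2 TPM) and Pcolce, the enhancer of Bmp1 (14.8 to 26.8). In mesenchyme 2 of 16 were lower, a share near that of all genes, with Wfikkn2 (17.2 to 6.99) among them.

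Genes that modify or crosslink collagen had 5 of 25 higher and 1 lower in KO ectoderm, with Lum (5.11 to 17.7 TPM), Postn (13.5 to 38.5) and P3h3, a prolyl hydroxylase relative (21.0 to 41.2), higher and Fmod (21.0 to 12.4) lower. In mesenchyme 8 of 25 were lower, with Fn1 (515 to 252), Fkbp10 (102 to 54.4), Plod3, a lysyl hydroxylase (86.6 to 50.8), and Efemp2, a partner of Lox in elastic fibres (123 to 74.96), first. Of the matrix substrates 8 of 17 were higher in KO ectoderm (Col3a1, 31.0 to 118) and 14 of 19 lower in KO mesenchyme (Hspg2, 45.4 to 13.8). After the GC correction the counts lower in mesenchyme were 0 of 16 proteinases, 1 of 16 inhibitors, 2 of 25 modifiers and 9 of 19 substrates, against 2.36% of all genes. With the mesenchyme share subtracted, the counts higher in ectoderm were 0 of 14, 1 of 14, 2 of 25 and 1 of 17, against 2.03% of all genes. Col1a1, Col1a2 and Col3a1 of the substrates and Lum of the modifiers are also mesenchyme markers that set this share. The drop in these 2 lists was thus partly fixed in advance.

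Several members overlap another gene on the opposite strand, and whether reads were counted by strand is not given in the sources used here. Loxl3 overlaps Htra2 (43.1 TPM in WT mesenchyme), Mmp19 overlaps Tmem198b (33.5 TPM) and Adamts7 overlaps Tbc1d2b (23.4 TPM). Values of these members are uncertain to the extent that shared stretches were counted for both genes. Timp1 and Timp3 lie within Syn1 and Syn3, which were at 0.92 and 2.96 TPM in WT mesenchyme.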

How the data were processed

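The authors deposited TPM values in 1 table, by gene symbol, in which every group is a single column. The submitters' processing notes list STAR 2.5.2a, kallisto 0.43.0 and the mm10 build. The origin of the TPM among these tools, the annotation, strand use and the pooling of 4 libraries into a column were not given in the sources used here. With 1 value per group no model, replicate comparison or p-value was possible.

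Here, symbols in several rows (103, none of them a member) kept the row with the highest sum. Log2 ratios used TPM plus 1, a mean of at least 1 TPM over the groups compared, and counting sizes of 1.5-fold (KO against WT) and 2-fold (layers, and difference of KO effects). Every member at 1 TPM or more is named. Of other lists, up to 4 genes past 1.5-fold with 5 TPM are named per comparison, and markers named beside them are list members. Gene positions, transcript GC and length came from GENCODE M21 on GRCm38, the assembly of mm10, for all 51 members. Trends were fitted by lowess (statsmodels 0.14.6, fraction 0.3) on genes with a mean of 5 TPM or more. Calculations ran in Python 3.11.15 with pandas 2.3.3, and the ratio and trend steps were tested on simulated data. Members and lists were chosen with earlier results of these data known. Alternatives were pseudocounts of 0.1 and 5, no filter, a filter of 5 TPM, columns rescaled to the same sum, quantile normalization, GC and length corrections, summed rows and, for ectoderm, subtraction of the mesenchyme share.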

Additional observations from a re-analysis of the deposited data

Results flagged for a closer look

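Adamts15 and Loxl1 were past 1.5-fold in opposite directions in the layers, higher in KO ectoderm and lower in KO mesenchyme, and the difference was not tested. The ectoderm log2 ratio minus the mesenchyme log2 ratio was 1.5 for Adamts15 (0.65 and -0.85) and 1.60 for Loxl1 (0.68 and -0.92). Of 13283 genes measured in both layers 181 (1.36%) had this pattern, and of 31 members 2 (6.45%). With the mesenchyme share subtracted, Adamts15 was at 0.20 and Loxl1 at 0.24 in ectoderm. After the correction for GC they were at -0.53 and -0.34 in mesenchyme, inside 1.5-fold.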

How the results depend on the processing

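No paired analysis was possible because the table holds 1 value per group, and leaving out libraries was not possible for the same reason. No member past its fold changed sign under any alternative run. In KO ectoderm the count of members 1.5-fold higher, 9 of 31, was 16 with a pseudocount of 0.1 (median 0.60, 7.05% of all genes), 3 with a pseudocount of 5 (1.72%), 3 of 16 with a filter of 5 TPM (2.92%), 5 after quantile normalization (3.32%) and 2 after the mesenchyme share was subtracted (2.03%). In KO mesenchyme the 12 of 36 lower became 1 after the GC correction (2.36% of all genes) and 7 after the length correction (6.23%), and 1 member, Mmp16, was higher after quantile normalization, after the GC correction and after the length correction. Between WT layers the 23 lower became 15 of 23 with the filter of 5 TPM (9.78% of all genes), and the median of -1.75 became -0.88 with a pseudocount of 5 and -0.74 with no filter. Between KO layers the 10 lower became 5 with a pseudocount of 5 (2.85% of all genes). The 16 members with a KO effect at least 2-fold higher in ectoderm became 6 with a pseudocount of 5 (3.03% of all genes), 10 after quantile normalization (3.34%), 5 after the GC correction (2.22%) and 9 after the subtraction (4.09%). The median of the 35 measured members, 0.90, became 1.16 with a pseudocount of 0.1 and 1.02 with the filter of 5 TPM. Quantile normalization moved the median of all genes by 0.16 between WT layers, by 0.14 in KO mesenchyme and by -0.23 for the difference of KO effects. TPM keep no depth, so the precision of low values such as those of Mmp25 or Adamts16 is unknown.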
